A study of Mus musculus with 10 samples.

Results

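The Aldh1a genes encode cytosolic aldehyde dehydrogenases of class 1A. They were taken as the genes of the array table whose only symbol begins with Aldh1a, which gave 3 of 2560 named genes, Aldh1a1, Aldh1a3 and Aldh1a7. They were measured by 4 of 3663 probe sets, with 1 for Aldh1a1 (1416468_at), 2 for Aldh1a3 (1417642_at and 1448789_at) and 1 for Aldh1a7 (1418601_at). All 3 genes had passed the filter that the authors set on level and on spread between arrays, and Aldh1a2 was not analysed here.

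The arrays measured RNA of 5 populations sorted by flow cytometry from the mammary glands of virgin FVB females aged 6 to 8 weeks, with 2 arrays per population and 10 in all. Cells stained for CD45, CD31 or Ter119 (blood and endothelial cells) were sorted away, and the methods of the study also name CD140α, a stromal receptor. The rest were separated by CD24, by CD49f (integrin α6) and by Thy-1, a surface glycoprotein. The submitters describe Thy-1+CD24medCD49fhigh cells as stem cells, Thy-1-CD24medCD49fhigh cells as progenitors, CD24medCD49fmed cells as myoepithelial, CD24highCD49fmed cells as luminal progenitors and CD24medCD49f-/low cells as differentiated luminal cells. The first 3 populations are called basal here (6 arrays) and the last 2 luminal (4 arrays). The labels name no transgene and no treatment. In the text of the study the third basal gate is CD24lowCD49fmed and in the labels it is CD24medCD49fmed, and whether they are the same gate is not stated.

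Aldh1a enzymes oxidise retinaldehyde to retinoic acid, the ligand of the nuclear retinoic acid receptors, and this is the last and irreversible step of retinoic acid synthesis from vitamin A. Fluorescent substrates of aldehyde dehydrogenases are widely used to enrich stem and progenitor cells from mammary gland and other tissues, and Aldh1a3 is often listed among the genes of luminal progenitors. Aldh1a7 is a rodent paralog of Aldh1a1 whose part in retinoic acid synthesis is less settled.

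Aldh1a1 and Aldh1a7 lie next to each other on chromosome 19, with 0 annotated genes between them. The 100 bases before their transcription start sites are shown because the genes gave different patterns in the sorted cells although this sequence is nearly the same in both. The windows are from RefSeq on GRCm38.p6 and read 5′ to 3′ on the strand of the gene. Capitals mark the motifs CCAAT and ATGCAAAT (the octamer bound by POU factors), which were searched on both strands. Aldh1a1 has a second annotated start, whose window is shown for comparison.
Aldh1a1, chr19:20601868-20601967, plus strand: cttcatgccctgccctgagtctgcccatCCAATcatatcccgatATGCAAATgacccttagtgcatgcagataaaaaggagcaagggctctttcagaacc
Aldh1a7, chr19:20727557-20727656, minus strand: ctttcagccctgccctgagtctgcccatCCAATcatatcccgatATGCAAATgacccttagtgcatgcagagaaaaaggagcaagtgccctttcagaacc
Aldh1a1, other start, chr19:20492483-20492582, plus strand: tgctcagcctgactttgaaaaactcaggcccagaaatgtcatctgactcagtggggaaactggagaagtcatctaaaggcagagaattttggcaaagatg

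The first pair of windows matched at 94 of 100 positions. Both held ATGCAAAT from position -56 and CCAAT from position -72, counted from the start site. The octamer occurred in 0.645% and CCAAT in 18.9% of 32851 promoter windows of this length. The letters AGGTCA, the core of a retinoic acid response element, were in none of the 3 windows and in 5.88% of all windows. The other Aldh1a1 start matched the Aldh1a7 window at 30 of 100 positions and held none of the motifs searched. The arrays cannot tell which Aldh1a1 start was used. No promoter window is shown for Aldh1a3.

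All values below are log2 intensities that the authors centred on the mean of each probe set over the 10 arrays, so 0 is the gene's own mean, 1 is a doubling over it, and the levels of different genes cannot be set against each other. Array medians over all probe sets lay between -0.432 and 0.169, and the SD within an array between 0.513 and 1.304. Most lineage markers differed between the labelled compartments. Among all features 34.7% were called higher in basal arrays and 41.3% lower. All 12 measured basal markers were called higher in basal arrays, Krt14 by 4.49 and Trp63 by 3.20. These 12 include Itga6, the gene of the sort marker CD49f. Of 8 measured luminal progenitor markers 7 were called lower in basal arrays, with Elf5 at -2.42, and 1, Itgb3, was called higher at 1.26. Of 7 measured hormone-sensing markers 6 were called lower, with Foxa1 at -3.25. Of 8 measured markers shared by luminal cells 5 were called lower in basal arrays and 3 (Krt19, Cldn4 and Cldn7) were not called. The summed level of these 8 was 4.62 in basal Thy-1+ replicate 2 and 0.81 in luminal CD24medCD49f-/low replicate 1, so this list overlapped between the compartments. Epidermal keratinocyte markers (7 of 9 in the table) set 2 arrays apart, with a summed level of 17.96 in Thy-1+ replicate 1 and 14.23 in CD24medCD49fmed replicate 2, against -6.57 to -0.72 in the others. Krt1, a keratin of differentiating epidermis, was 3.32 and 2.86 in these arrays. Results are therefore also given with both of these arrays left out, a choice made after seeing the data. Of 10 endothelial markers 0 were in the table, and of 10 leukocyte markers 1. Fibroblast markers (7 of 12 in the table) and pericyte markers (6 of 10) were measured too, and their values stand beside the results they moved with. In bulk samples such as these, fewer cells of a type and less RNA per cell cannot be told apart.

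**Figure D1:**
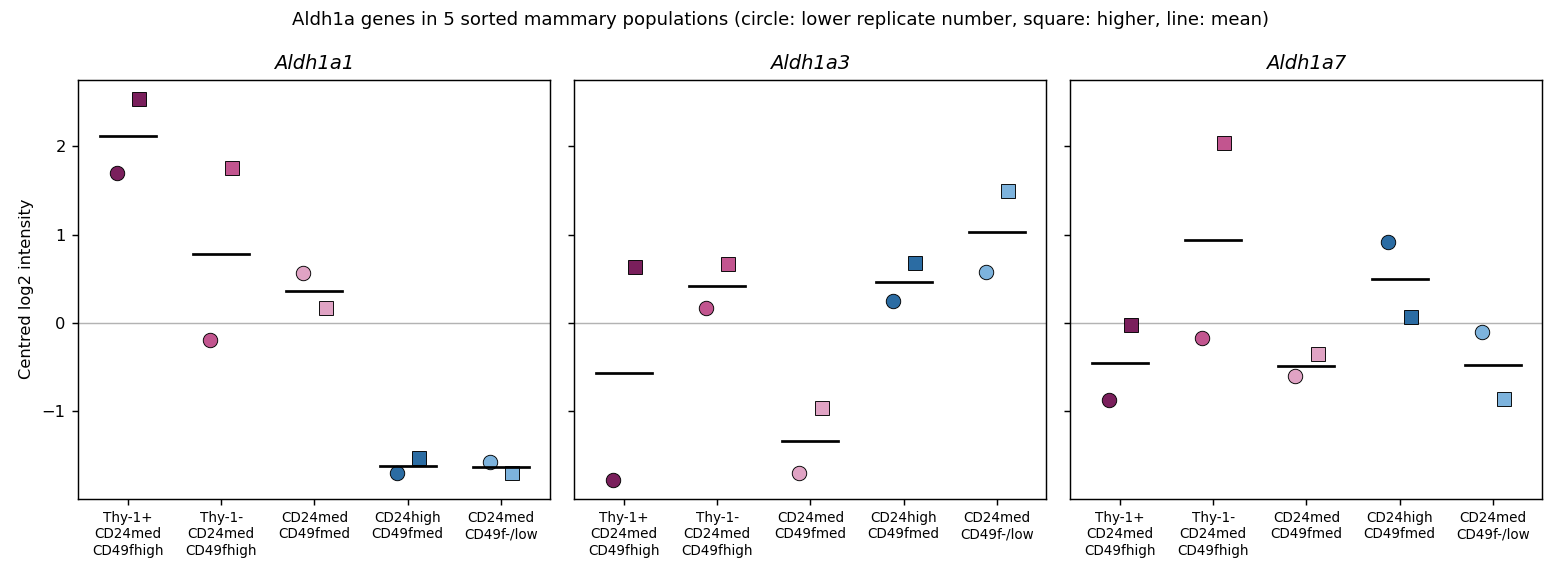
Centred log2 values of Aldh1a1, Aldh1a3 and Aldh1a7 in the 10 arrays, by sorted population; points are arrays and horizontal lines are population means of 2 arrays. Aldh1a1 lies between -1.70 and -1.54 in the 4 luminal arrays and above them in all 6 basal arrays, while Aldh1a3 and Aldh1a7 overlap between the basal and the luminal arrays.

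Aldh1a1 was higher in basal than in luminal cells by 2.72 ± 0.38 (SE; 95% interval 1.93 to 3.50), which is 6.57-fold. In Thy-1+CD24medCD49fhigh cells Aldh1a1 was 1.70 and 2.54, in Thy-1-CD24medCD49fhigh cells -0.20 and 1.75, and in CD24medCD49fmed cells 0.56 and 0.17. In the luminal cells Aldh1a1 was -1.70 and -1.54 in CD24highCD49fmed and -1.58 and -1.70 in CD24medCD49f-/low. The lowest basal array was thus above the highest luminal one, and the luminal arrays lay close together while the basal arrays were spread out. The adjusted p was 4.90e-06 in limma, a moderated linear model fitted over 2932 features. Most features differed in this comparison, with 76.0% of them called at an adjusted p under 0.05 and 34.7% called higher in basal arrays. Arrays that did not overlap, with the basal side higher, were found for 25.2% of features. Rank products, a test on ranks of fold changes that was also the choice of the study, gave a permutation p of 0.000566 for Aldh1a1, and 7.57% of features reached its limit of 0.01 in this direction. With both keratinocyte-high arrays left out the difference was 2.79 (adjusted p 0.00171).

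By population mean, Aldh1a1 was highest in Thy-1+CD24medCD49fhigh cells at 2.12 ± 0.59 (SD, n = 2), followed by Thy-1-CD24medCD49fhigh cells at 0.78 ± 1.38 and CD24medCD49fmed cells at 0.36 ± 0.27. The luminal means were -1.62 ± 0.11 for CD24highCD49fmed and -1.64 ± 0.08 for CD24medCD49f-/low. Of the 10 pairs of populations 6 were called in limma, and these were every basal population against each luminal one. The share of all features called was 62.0% for Thy-1+, 60.0% for Thy-1- and 67.0% for CD24medCD49fmed cells against CD24highCD49fmed cells. Against CD24medCD49f-/low cells it was 26.1%, 27.2% and 35.2%. The widest called difference was Thy-1+CD24medCD49fhigh minus CD24medCD49f-/low at 3.76 (adjusted p 0.00018). The narrowest was CD24medCD49fmed minus CD24highCD49fmed at 1.98 (adjusted p 0.00783). Within the basal compartment no pair was called for Aldh1a1, with Thy-1- minus CD24medCD49fmed at 0.42 and Thy-1+ minus Thy-1- cells at 1.34. Of all features, 0 were called between Thy-1+ and CD24medCD49fmed cells (0%) and 3 between Thy-1- and CD24medCD49fmed cells (0.102%). The luminal means differed by 0.02 (95% interval -1.19 to 1.23).

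The summed fibroblast and pericyte markers were, like Aldh1a1, higher in basal than in luminal arrays. Within basal cells the sums were higher in CD24medCD49fmed than in Thy-1- arrays. The Aldh1a1 difference of Thy-1- minus CD24medCD49fmed cells, 0.42, was not called. The fibroblast summed centred level over 7 genes was 9.54 and 8.53 in Thy-1+CD24medCD49fhigh arrays, -0.87 and -0.43 in Thy-1- arrays, 6.56 and 3.99 in CD24medCD49fmed arrays, and between -8.24 and -5.11 in the 4 luminal arrays. The pericyte sum over 6 genes was 5.94 and 6.00 in Thy-1+ arrays, -0.42 and -0.39 in Thy-1- arrays, 2.10 and 0.87 in CD24medCD49fmed arrays, and between -6.01 and -1.51 in luminal arrays. Both sums were highest in the Thy-1+ arrays and lowest in luminal arrays. Thy-1- replicate 2, with the second highest Aldh1a1 value, had sums near 0, below those of the CD24medCD49fmed arrays, whose Aldh1a1 was lower. Thy-1- replicate 1 had the lowest Aldh1a1 value of the basal arrays. Pdgfrb, on the pericyte list, was 1.19 in Thy-1- replicate 2 and -0.05 in replicate 1, while the pericyte sums of these arrays were nearly equal. In basal against luminal cells 6 of 7 fibroblast markers were called higher and 1 lower, and 4 of 6 pericyte markers were called higher. Of all features 34.7% were called higher in basal arrays and 41.3% lower. The summed Schwann cell markers (6 of 10 in the table) were also higher in basal than in luminal arrays. This sum was 4.55 and 5.80 in Thy-1+ arrays, -0.26 and 0.45 in Thy-1- arrays, and 4.61 and 4.71 in CD24medCD49fmed arrays. In luminal arrays it was between -6.02 and -2.76. The part of these marker lists in the Aldh1a1 difference was not tested.

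Aldh1a3 ran the other way, lower in basal than in luminal cells by 1.24 on the log2 scale (-1.24 ± 0.41, 95% interval -2.10 to -0.39), which is 2.37-fold. Aldh1a3 was 0.58 and 1.49 in CD24medCD49f-/low cells and 0.25 and 0.68 in CD24highCD49fmed cells. In the basal gates Aldh1a3 was 0.17 and 0.67 in Thy-1-CD24medCD49fhigh cells, -1.78 and 0.63 in Thy-1+CD24medCD49fhigh cells, and -1.71 and -0.97 in CD24medCD49fmed cells. All luminal arrays were above the gene's mean, but so were both Thy-1- arrays and 1 of the Thy-1+ arrays, so the groups overlapped. The adjusted p in limma was 0.0108, and 41.3% of features were called lower in basal arrays. Without Thy-1- replicate 1 the difference was -1.16 and was no longer called (adjusted p 0.0557). With both keratinocyte-high arrays left out it was -0.72 and not called (adjusted p 0.112). By rank products the permutation p was 0.0705, and 7.37% of features reached 0.01 in this direction.

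The order of Aldh1a3 means was CD24medCD49f-/low at 1.03 ± 0.64 (SD, n = 2), CD24highCD49fmed at 0.46 ± 0.31, Thy-1-CD24medCD49fhigh at 0.42 ± 0.35, Thy-1+CD24medCD49fhigh at -0.57 ± 1.70 and CD24medCD49fmed at -1.34 ± 0.53. Of 10 pairs 2 were called, both with CD24medCD49fmed on the low side. CD24medCD49fmed minus CD24medCD49f-/low was -2.37 (adjusted p 0.0078, with 35.2% of features called in that pair). CD24medCD49fmed minus CD24highCD49fmed was -1.80 (adjusted p 0.0197). Neither pair was called without CD24medCD49fmed replicate 2 or with both keratinocyte-high arrays left out, 1 was called without either of the CD24highCD49fmed replicates, and without Thy-1+ replicate 2 there were 4 called pairs. The means of Thy-1- cells and CD24highCD49fmed cells were nearly equal, and Thy-1+ minus CD24medCD49f-/low cells was -1.60 (adjusted p 0.0655).

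The summed luminal progenitor markers were lowest in CD24medCD49fmed arrays, the population with the lowest Aldh1a3 mean. Within each population the array with the lower luminal progenitor sum also had the lower Aldh1a3 value. Between populations the order did not always hold. The sum was -3.87 in Thy-1+ replicate 1, with Aldh1a3 at -1.78, and -6.19 in Thy-1- replicate 1, with Aldh1a3 at 0.17. Over all arrays the luminal progenitor sum of 8 genes was -13.98 and -6.80 in CD24medCD49fmed arrays, -3.87 and -1.90 in Thy-1+ arrays, -6.19 and 1.09 in Thy-1- arrays, and between 1.66 and 11.13 in luminal arrays. The sum over 8 shared luminal markers was -7.51 and 4.62 in Thy-1+ arrays, the replicates with Aldh1a3 at -1.78 and 0.63. In CD24medCD49fmed arrays the shared luminal sum was -13.50 and 0.16. Within both populations the array with the lower sum also had the lower Aldh1a3 value. The same held in the other populations. Their shared luminal sums were -7.83 and -2.03 in Thy-1- arrays, 5.14 and 8.33 in CD24highCD49fmed arrays, and 0.81 and 11.82 in CD24medCD49f-/low arrays. Thy-1+ replicate 1 and CD24medCD49fmed replicate 2 had the high epidermal keratinocyte sums of 17.96 and 14.23, against -0.90 and -0.72 in their partners. In the arrays of the other populations the keratinocyte sum was between -6.57 and -4.41. The part of these markers in the Aldh1a3 difference was not tested.

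**Figure D2:**
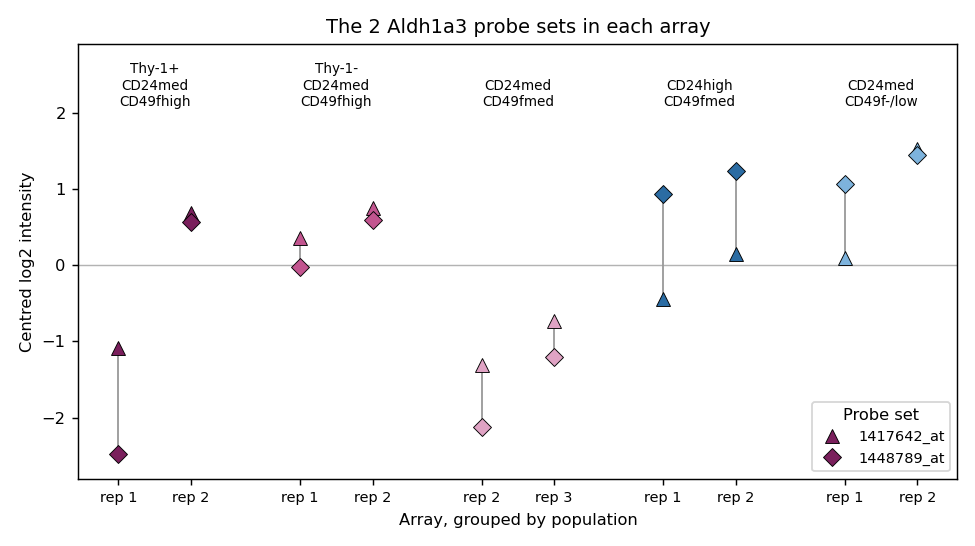
Centred log2 values of the Aldh1a3 probe sets 1417642_at and 1448789_at in the 10 arrays, by population. The luminal CD24highCD49fmed arrays are at 0.93 and 1.23 in 1448789_at and at -0.44 and 0.14 in 1417642_at.

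The probe sets of Aldh1a3 did not give the same difference. For 1448789_at, basal minus luminal was -1.94 ± 0.45 (adjusted p 0.000758), and for 1417642_at it was -0.55 ± 0.39 (adjusted p 0.200). Only the first was called. In CD24highCD49fmed cells 1448789_at was 0.93 and 1.23 against -0.44 and 0.14 for 1417642_at. In CD24medCD49f-/low cells 1448789_at was 1.06 and 1.45 against 0.09 and 1.52. The lowest values of both probe sets were in the keratinocyte-high arrays, Thy-1+ replicate 1 and CD24medCD49fmed replicate 2, where 1448789_at was -2.48 and -2.12 and 1417642_at was -1.08 and -1.31. Over the 10 arrays the probe sets correlated at r = 0.807, as a description of arrays that include replicates. Where on the Aldh1a3 transcript each probe set lies was not examined here.

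Aldh1a7 overlapped between basal and luminal cells, with a difference of -0.01 ± 0.41 (95% interval -0.85 to 0.83, adjusted p 0.988 in limma). Aldh1a7 was -0.17 and 2.04 in Thy-1-CD24medCD49fhigh cells, -0.88 and -0.03 in Thy-1+CD24medCD49fhigh cells, and -0.61 and -0.36 in CD24medCD49fmed cells. In luminal cells Aldh1a7 was 0.92 and 0.06 in CD24highCD49fmed and -0.10 and -0.86 in CD24medCD49f-/low. The highest value, in Thy-1- replicate 2, stood apart, with the other arrays between -0.88 and 0.92. The interval leaves room for a difference of 0.83 in either direction.

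The Aldh1a7 means were 0.94 ± 1.56 (SD, n = 2) in Thy-1-CD24medCD49fhigh cells, 0.49 ± 0.61 in CD24highCD49fmed cells, -0.46 ± 0.60 in Thy-1+CD24medCD49fhigh cells, -0.48 ± 0.54 in CD24medCD49f-/low cells and -0.49 ± 0.18 in CD24medCD49fmed cells. The last 3 were nearly level. Of 10 pairs 0 were called in limma, and 1 was called when Thy-1- replicate 1 was left out. Thy-1- minus CD24medCD49f-/low had a difference of 1.41 (adjusted p 0.0902), and Thy-1- minus CD24highCD49fmed one of 0.45.

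**Figure D3:**
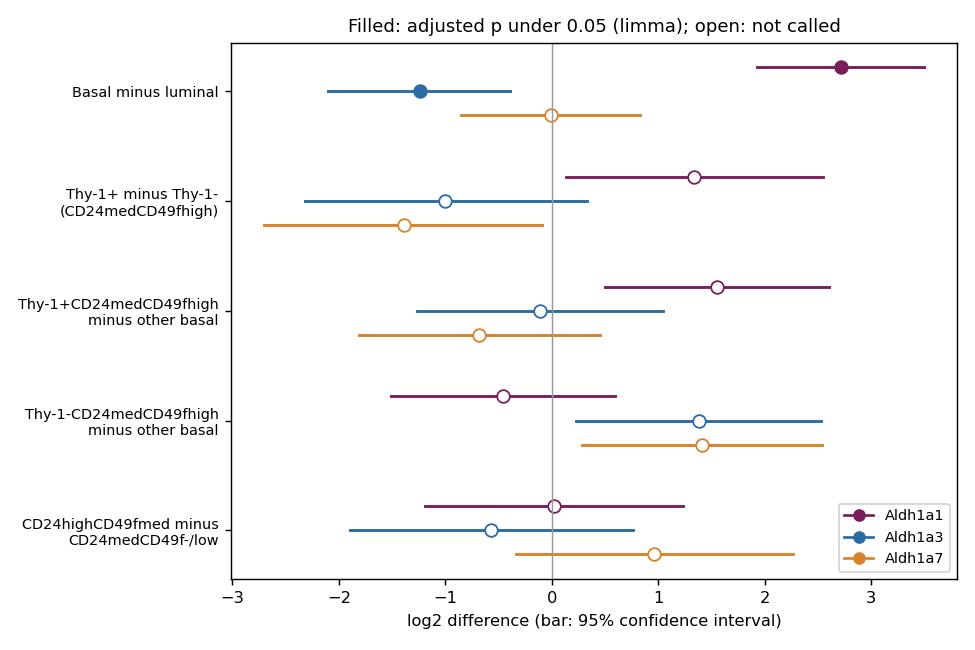
Log2 differences of the 3 Aldh1a genes in 5 comparisons, with 95% intervals from limma. Aldh1a1 at 2.72 and Aldh1a3 at -1.24 in basal minus luminal cells are called, and in the other 4 comparisons no member is called.

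Differences among the basal populations address whether Thy-1 divides the CD24medCD49fhigh gate. None of the 3 genes was called by limma in any of these comparisons, and few features were, with 2 (0.0682%) between Thy-1+ and Thy-1- cells, 0 (0%) between Thy-1+ cells and the other basal populations, and 2 (0.0682%) between Thy-1- cells and the other basal populations. At an unadjusted p under 0.05, 2.52%, 2.18% and 2.63% of features passed, and rank products at p under 0.01 called 64, 76 and 96 features. These comparisons share arrays and are not independent of each other. The median difference over all features was 0.15, 0.10 and -0.12, and setting the array medians to 0 moved it to -0.02, 0.00 and 0.04.

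The Aldh1a1 difference between Thy-1+ and Thy-1- cells was 1.34 ± 0.58 (95% interval 0.13 to 2.55, adjusted p 0.9995). The Thy-1- arrays at -0.20 and 1.75 straddled the lower Thy-1+ array at 1.70. Against the mean of the other basal populations the Aldh1a1 difference of Thy-1+ cells was 1.55 ± 0.51 (95% interval 0.50 to 2.60), with an adjusted p of 1.0 in limma and a rank products permutation p of 0.00129 (0.253 after adjustment). In that comparison 1.43% of features reached a rank products p under 0.01 in this direction. The difference was between 1.06 and 2.04 when each array was left out in turn. Aldh1a7 in the same comparison was -0.68 ± 0.54 (95% interval -1.81 to 0.45), with a rank products permutation p of 0.00907 (0.861 after adjustment), against 1.16% of features in this direction. After adjustment 0 features (0%) passed 0.05 by rank products in this comparison.

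By population mean, Aldh1a3 and Aldh1a7 were highest among basal cells in Thy-1- cells, but no pair of basal populations was called for either gene. For Aldh1a3 this order rested on Thy-1+ replicate 1, without which Thy-1+ minus Thy-1- was 0.21. Thy-1- cells minus the mean of the other basal populations was 1.38 ± 0.55 for Aldh1a3 (95% interval 0.23 to 2.53, adjusted p 0.999, rank products permutation p 0.000631). For Aldh1a7 the same difference was 1.41 ± 0.54 (95% interval 0.28 to 2.54, adjusted p 0.999, rank products permutation p 0.000212). Neither passed after adjustment of the rank products p (0.264 and 0.124), as 0.273% of features did, and 1.26% of features had an unadjusted one under 0.01 in this direction. The Aldh1a7 value rests on Thy-1- replicate 2, since it was 0.30 when that array was left out and 2.51 when replicate 1 was. The Aldh1a3 value lay between 0.78 and 1.98 over the arrays left out in turn. Aldh1a1 in Thy-1- cells minus the others was -0.46 ± 0.51 (95% interval -1.51 to 0.59), and Aldh1a3 in Thy-1+ cells minus the others was -0.11 ± 0.55 (95% interval -1.27 to 1.04). With both keratinocyte-high arrays left out, Thy-1- cells minus the others was 0.59 for Aldh1a3 and 1.13 for Aldh1a7, and Thy-1+ cells minus the others was 2.06 for Aldh1a1, 0.90 for Aldh1a3 and -0.32 for Aldh1a7. No member was called by limma there.

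Between Thy-1+ and Thy-1- cells Aldh1a7 was -1.39 ± 0.63 (95% interval -2.70 to -0.09, adjusted p 0.9995 in limma). The rank products permutation p was 0.00072 (0.717 after adjustment), and 0.819% of features had one under 0.01 in this direction. With Thy-1- replicate 2 left out the Aldh1a7 difference was -0.29, and with replicate 1 left out it was -2.50. Aldh1a3 in the same comparison was -1.0 ± 0.64 (95% interval -2.32 to 0.33), and its sign turned to 0.21 without Thy-1+ replicate 1, one of the keratinocyte-high arrays. Aldh1a1 in this comparison lay between 0.37, with Thy-1- replicate 1 left out, and 2.32, with Thy-1- replicate 2 left out. Single arrays thus set the size of all 3 differences between Thy-1+ and Thy-1- cells.

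**Figure D4:**
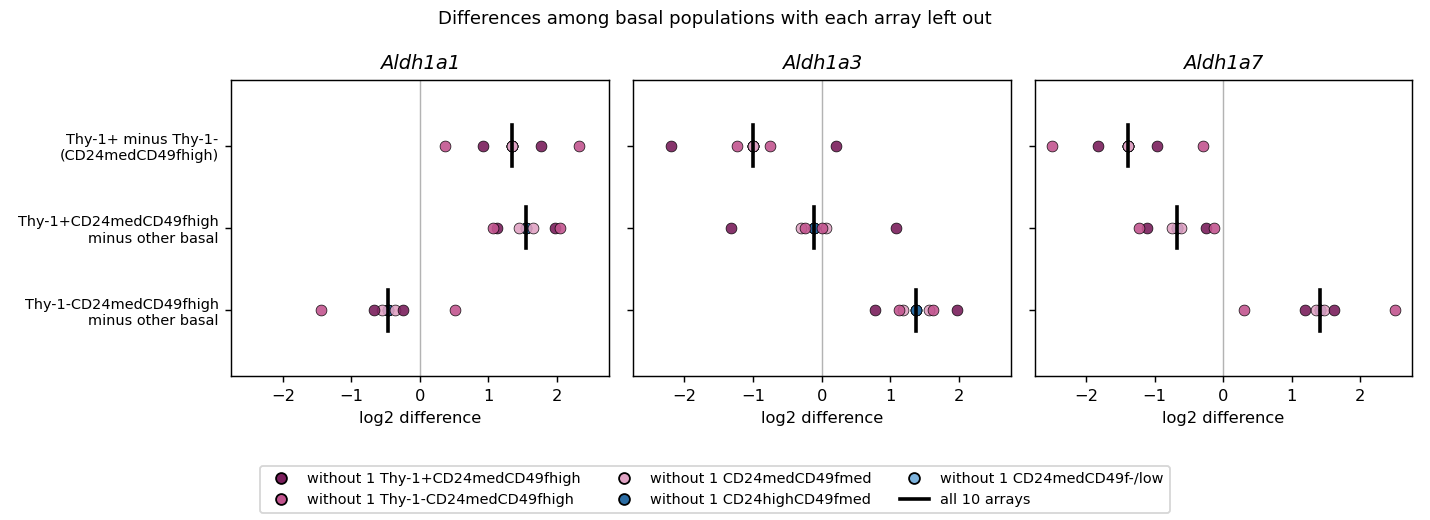
Log2 differences of the 3 Aldh1a genes in 3 comparisons among basal populations, with each of the 10 arrays left out in turn (points, coloured by the population of that array) and with all arrays (vertical lines). In Thy-1+ minus Thy-1- cells Aldh1a1 runs from 0.37 to 2.32 and Aldh1a7 from -2.50 to -0.29.

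The luminal populations, CD24highCD49fmed and CD24medCD49f-/low, differed in none of the 3 genes by limma. In this comparison 6 features (0.205%) were called and 15.4% had an unadjusted p under 0.05. Of the lineage markers, 0 of 8 luminal progenitor, 0 of 7 hormone-sensing and 0 of 12 basal ones were called. The basal markers had a median difference of -1.32, lower in CD24highCD49fmed cells. With so few features called, the lack of calls cannot show whether these markers separate the populations. Arrays did not overlap for some of them, such as Krt5 (-1.86) and Elf5 (0.68), and overlapped for others, such as Itga6 (0.05) and Kit (0.30). CD24highCD49fmed minus CD24medCD49f-/low was 0.02 ± 0.58 for Aldh1a1, -0.57 ± 0.64 for Aldh1a3 (95% interval -1.90 to 0.76) and 0.96 ± 0.63 for Aldh1a7 (95% interval -0.34 to 2.27, adjusted p 0.433 in limma). The Aldh1a7 arrays did not overlap, at 0.92 and 0.06 against -0.10 and -0.86, which held in this direction for 37.6% of features. The median over all features was 0.35 here and -0.03 with array medians set to 0, so a member's difference is to be read against that shift. With array medians set to 0 the difference was -0.36 for Aldh1a1, -0.94 for Aldh1a3 and 0.59 for Aldh1a7. With quantile normalisation it was 0.09, -0.84 and 0.43.

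The difference between family members within each array is not changed by a shift of the whole array. It was compared between the 6 basal and 4 luminal arrays by a two-sided exact permutation test over 210 arrangements. The p-values were not adjusted over the 3 pairs. The smallest possible p was 0.00476 with all arrays, and it is larger when arrays are left out. The test moved single arrays as if independent, although they include replicates of a population. Its p-values therefore describe these arrays and not the sorted populations. Aldh1a1 minus Aldh1a3 averaged 1.58 in basal arrays (-0.37 to 3.48) and -2.38 in luminal arrays (-3.18 to -1.94), a difference of 3.96 with the smallest possible exact p of 0.00476. Aldh1a1 minus Aldh1a7 averaged 1.09 (-0.29 to 2.59) against -1.63 (-2.61 to -0.84), a difference of 2.72 with an exact p of 0.00952. Aldh1a3 minus Aldh1a7 averaged -0.49 against 0.74, a difference of -1.24 with an exact p of 0.0714. With quantile normalisation the differences were 3.44, 2.34 and -1.10 (exact p 0.00476, 0.0143 and 0.148). With both keratinocyte-high arrays left out they were 3.32, 2.33 and -0.99 (exact p 0.0286, 0.0286 and 0.257). In these arrays Aldh1a1 minus each paralog was thus higher on the basal than on the luminal side under these settings. The difference for Aldh1a3 minus Aldh1a7 did not pass 0.05 under them. Aldh1a7 itself differed by -0.01, so the differences against it, 2.72 and -1.24, repeat those of Aldh1a1 and Aldh1a3 alone.

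The genes most like each member were taken as the 5 with the highest Pearson r over the 10 arrays, which include replicates of a population. For Aldh1a1 they were S1pr3, a sphingosine-1-phosphate receptor (r = 0.947), Pdgfrb, the β receptor of platelet-derived growth factor (0.940), Phyhip (0.905), Slc35f1 (0.903) and the keratin Krt15 (0.900). Pdgfrb is also on the pericyte list. For Aldh1a3 they were Slc12a2, the sodium-potassium-chloride cotransporter (0.954), Tnfaip2 (0.912), Plet1 (0.894), the chemokine Cxcl2 (0.882) and Ido1, which degrades tryptophan (0.880). For Aldh1a7 they were Hmmr (0.899), Cdca2 (0.857), Kif20b (0.828), Ttk (0.816) and Arhgap6 (0.812), and Hmmr, Cdca2, Kif20b and Ttk are genes of mitosis. The members themselves were less alike, with r = -0.393 for Aldh1a1 and Aldh1a3, 0.124 for Aldh1a1 and Aldh1a7, and 0.366 for Aldh1a3 and Aldh1a7.

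Other genes of retinoid metabolism and response were taken from a list of 71, of which 8 were in the table. All 8 were called between basal and luminal cells, 3 higher and 5 lower in basal arrays, where 76.0% of all features were called. Their differences ran from -1.19 (Dhrs3) to 1.59 (Rarres2). The median of -0.99, against -0.11 over all features, is therefore not a shift that the 8 genes share. By limma none was called in the other 4 comparisons. By rank products at p under 0.01 none was called between basal and luminal cells or between the luminal populations, and in each of the 3 comparisons among basal cells 1 was, which was Rarres2. Without CD24highCD49fmed replicate 2 there were 5 called by limma between basal and luminal cells, and with both keratinocyte-high arrays left out there were 4. None of 10 storage genes, 3 Cyp26 genes, 7 receptor genes and 3 other retinaldehyde oxidases was in the table.

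**Figure D5:**
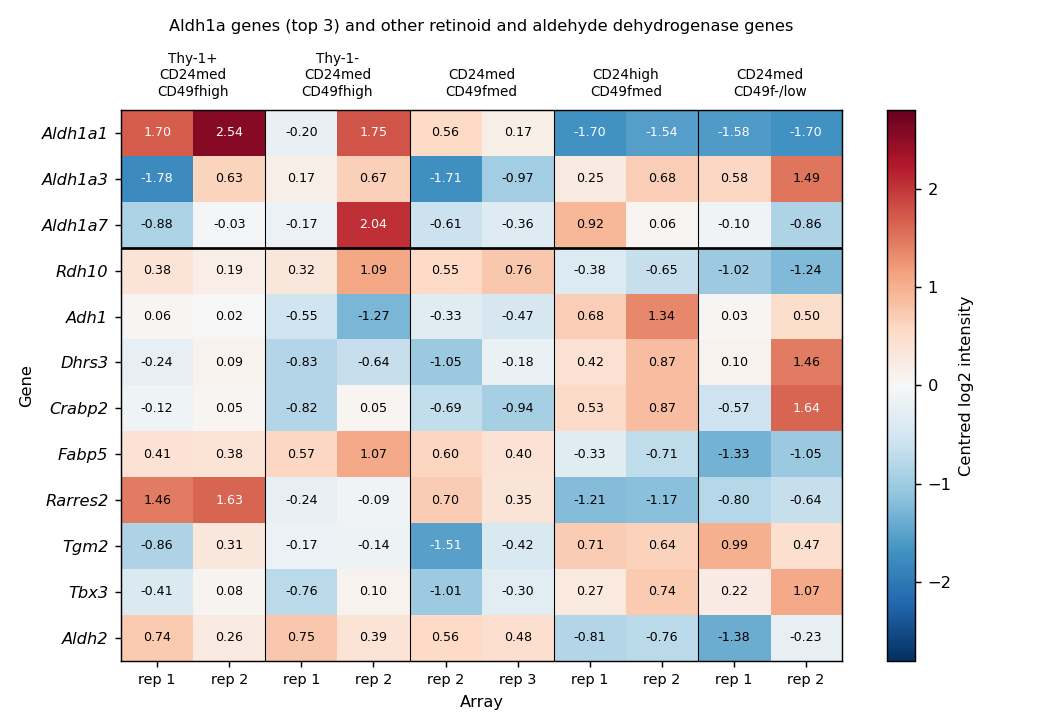
Centred log2 values of the 3 Aldh1a genes, 8 retinoid genes and Aldh2 (rows) in the 10 arrays (columns), as colours. Rdh10, Fabp5, Rarres2 and Aldh2 are above 0 in most basal arrays and below 0 in the luminal ones, and Adh1, Dhrs3, Crabp2, Tgm2 and Tbx3 mostly run the other way.

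Of the enzymes that make retinaldehyde from retinol, Rdh10 was higher in basal cells and Adh1 lower. Rdh10, a membrane-bound retinol dehydrogenase, lay between 0.19 and 1.09 in the 6 basal arrays and between -1.24 and -0.38 in the luminal ones (1.37 ± 0.32, adjusted p 0.00104). Adh1, a cytosolic alcohol dehydrogenase, lay between -1.27 and 0.06 in basal and between 0.03 and 1.34 in luminal arrays (-1.06 ± 0.33, adjusted p 0.00733), with the ranges just overlapping. Dhrs3, which reduces retinaldehyde back to retinol and is itself induced by retinoic acid, was lower in basal arrays (-1.19 ± 0.35, adjusted p 0.00558).

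The carriers split as well. Crabp2, which carries retinoic acid to its nuclear receptors, was lower in basal cells (-1.03 ± 0.39, adjusted p 0.0228), with CD24medCD49f-/low replicates at -0.57 and 1.64 that spanned most of its range. Fabp5, a fatty acid binding protein that also binds retinoic acid, was higher in basal cells (1.43 ± 0.32, adjusted p 0.000668), from 0.38 to 1.07 in basal arrays and from -1.33 to -0.33 in luminal ones. The arrays of Fabp5 did not overlap.

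Among genes known to respond to retinoids, Rarres2, which encodes chemerin, was higher in basal cells (1.59 ± 0.31, adjusted p 0.000221), and the transglutaminase Tgm2 (-1.17 ± 0.35, adjusted p 0.00613) and the T-box factor Tbx3 (-0.96 ± 0.35, adjusted p 0.0172) were lower. Within basal cells Rarres2 was 1.46 and 1.63 in Thy-1+ arrays, -0.24 and -0.09 in Thy-1- arrays, and 0.70 and 0.35 in CD24medCD49fmed arrays. The Thy-1+ arrays were the highest for Rarres2. Its rank products permutation p was 0.00283 for Thy-1+ minus Thy-1- cells (1.36% of features under 0.01 in this direction). It was 0.00328 for Thy-1+ cells minus the other basal populations (1.43%) and 0.00671 for Thy-1- cells minus the others (2.01%). These p-values are unadjusted. By limma Rarres2 was not called in these comparisons (adjusted p 0.384, 0.847 and 0.999 in the same order). Of the 4 Tgm2 probe sets, 1417500_a_at was at -0.53 (adjusted p 0.177) and the other 3 between -1.44 and -1.33.

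Of 17 aldehyde dehydrogenase genes outside class 1A only Aldh2, the mitochondrial enzyme that clears acetaldehyde, was in the table. Aldh2 lay between 0.26 and 0.75 in the basal arrays and between -1.38 and -0.23 in the luminal ones, without overlap. It was higher in basal cells by 1.33 ± 0.34 (adjusted p 0.00181), and its 3 probe sets gave 1.42, 1.35 and 1.22. By rank products its permutation p was 0.165, so it was not called by that test. Aldh2 was not called in the other 4 comparisons by either test.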

How the data were processed

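RNA of 10 sorted samples was measured on Affymetrix mouse genome arrays. The deposited values are log2 intensities that the authors normalised (RMA per the methods of the study, RMA and GCRMA per the labels), filtered on a minimum level and at least a 4-fold range, and centred per probe set. Centring removed abundance, so levels over background are unknown, and the number of arrays limits the precision.

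Probe sets with exactly 1 symbol were averaged per gene, giving 2932 tested features. A mean per population was fitted over all arrays with limma 3.58.1 in R 4.3.3 (5 residual degrees of freedom plus 16.5 from moderation). Tests were two-sided, with Benjamini-Hochberg adjustment over all features within a comparison and calls at an adjusted p under 0.05. Scripts were tested on simulated data. Rank products used 100 permutations, with calls at an unadjusted p under 0.01. Replicates are not stated to be separate animals, so the p-values cover no more than the spread between these arrays. The members, gene lists and tests were chosen with earlier results of these data known, and the Aldh1a genes are in sets that the study drew in part from these arrays. Likeness was ranked by Pearson r, and listed genes were all named. The alternatives tried were a replicate block, array weights, robust moderation, probe sets alone, only the arrays compared, quantile normalisation, array medians set to 0, rank products and each array left out. A further alternative, both keratinocyte-high arrays left out, was added after seeing the data.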

Additional observations from a re-analysis of the deposited data

How the results depend on the processing

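With 2 arrays per population, leaving out each array in turn moved most values, and it left the lone sample to vary like the other populations. Basal minus luminal ran from 2.39 to 3.04 for Aldh1a1, from -1.65 to -0.84 for Aldh1a3 and from -0.37 to 0.36 for Aldh1a7, with 1768 to 2516 features called. Thy-1+ minus Thy-1- ran from 0.37 to 2.32, from -2.20 to 0.21 and from -2.50 to -0.29 for the same genes, with 0 to 11 features. Thy-1+ minus the other basal populations ran from 1.06 to 2.04, from -1.32 to 1.09 and from -1.23 to -0.13, with 0 to 5 features. Thy-1- minus the other basal populations ran from -1.44 to 0.51, from 0.78 to 1.98 and from 0.30 to 2.51, with 0 to 7 features. The luminal difference ran from -0.06 to 0.10, from -1.02 to -0.11 and from 0.53 to 1.39, with 0 to 295 features. The differences between members ran from 3.58 to 4.35 for Aldh1a1 minus Aldh1a3, from 2.40 to 3.00 for Aldh1a1 minus Aldh1a7 and from -1.71 to -0.70 for Aldh1a3 minus Aldh1a7, the last with an exact p of 0.0357 without CD24highCD49fmed replicate 1 and of 0.0476 without Thy-1+ replicate 2. Called pairs ran from 4 to 6 for Aldh1a1, from 0 to 4 for Aldh1a3 and from 0 to 1 for Aldh1a7, and retinoid genes called between basal and luminal cells from 5 to 8.

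Quantile normalisation gave -1.10 for Aldh1a3 between basal and luminal cells (adjusted p 0.0569) and 0.01 for Aldh1a7. The Aldh1a3 probe set 1417642_at alone gave -0.55 there and 0.04 in Thy-1+ minus the other basal populations. Array medians set to 0 gave -0.36 for Aldh1a1 between the luminal populations. Rank products, with the same differences, did not call Aldh1a3 between basal and luminal cells (-1.24). Rank products called Aldh1a7 in Thy-1+ minus Thy-1- (-1.39), Aldh1a1 (1.55) and Aldh1a7 (-0.68) in Thy-1+ minus the other basal populations, and Aldh1a3 (1.38) and Aldh1a7 (1.41) in Thy-1- minus the other basal populations. With both keratinocyte-high arrays (Thy-1+ replicate 1 and CD24medCD49fmed replicate 2) left out, basal minus luminal was -0.72 for Aldh1a3 and 0.18 for Aldh1a7, and Aldh1a3 was 0.21 in Thy-1+ minus Thy-1- and 0.90 in Thy-1+ minus the other basal populations. In that setting 4 pairs were called for Aldh1a1 and 0 for Aldh1a3, 1776 features were called between basal and luminal cells, and 0 were called in the other 4 comparisons. The cause of these changes was not tested.

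Same-numbered arrays deviated together at correlations from -0.198 to 0.521 over 6 pairs of populations. The correlation was 0.521 for the luminal populations and 0.3 for Thy-1+ with Thy-1- cells. Whether same-numbered arrays came from the same sort is not stated and was not tested. The main fit did not use the replicate numbers as pairs. Number 3 occurs in CD24medCD49fmed alone, so with a replicate block that population rested on its replicate 2. With the replicate block, basal minus luminal was 2.66 for Aldh1a1, -1.55 for Aldh1a3 and -0.11 for Aldh1a7, and Aldh1a3 was 0.34 in Thy-1+ minus the other basal populations.

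Between basal and luminal cells rank products called 438 features at an unadjusted p under 0.01, against 2227 in limma at an adjusted p under 0.05. The other counts by rank products use the same unadjusted limit. For Thy-1+ minus Thy-1-, with 2 called, the count was 1 with array medians set to 0, with quantile normalisation and with probe sets alone, 9 with the replicate block, 13 with only the arrays compared and 64 by rank products. For Thy-1+ minus the other basal populations, with 0 called, it was 10 with the replicate block and 76 by rank products. For Thy-1- minus the other basal populations, with 2 called, it was 4 with array weights, 10 with the replicate block, 6 with only the arrays compared and 96 by rank products. For the luminal pair, with 6 called, it was 15 with array medians set to 0, 33 with the replicate block, 11 with probe sets alone, 95 by rank products, and 0 with quantile normalisation, array weights or only the arrays compared. Called pairs of Aldh1a3 were 1 with quantile normalisation, 1 with probe set 1417642_at and 4 with 1448789_at, and of Aldh1a7 1 with array weights.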
